A study of Arabidopsis thaliana with 18 samples.

Results

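The 62 genes described here are Arabidopsis thaliana genes that the array's probe annotation knows only by a locus code and whose transcripts were raised when seedlings lost white light, in petioles and in leaf blades alike. A probe set, the group of probes that measures 1 transcript on an Affymetrix array, was taken when the median of its 3 D ratios and that of its 3 FRD ratios were each at least 2 in both tissues and when the lowest of these 6 arrays lay above the highest of the 3 WL arrays. Of 11933 probe sets with a single gene known by locus code, 63 met these values. AT3G23550 was then left out by name, which leaves 62 probe sets for 62 genes among 22746 non-control probe sets in the series. The genes were thus chosen by their D and FRD ratios against WL, so those rises are given as a description with no test. The far-red pulse against darkness and the differences between tissues were not used in the choice and were tested. These tests use the arrays whose values chose the genes, so they are not independent of the choice.

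Wild-type seedlings spent 19 days on rockwool under continuous white light, at 22 °C. They were then given a far-red pulse followed by 2 h of darkness (FRD), 2 h of darkness alone (D), or 2 h more of white light (WL), and no other agent or allele is named in the labels. RNA came separately from petioles and from leaf blades of the third and the fourth rosette leaf, with 3 arrays in each of the 6 groups. The series describes the 3 as independent biological replicates, and no label says how many plants were pooled for an array.

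Plants read light through phytochromes, receptors that red light switches on and far-red light switches off. Darkness after a far-red pulse starts with little active phytochrome, and petioles elongate under such conditions in the shade avoidance response. Darkness also stops photosynthesis and sets off a starvation program led by the kinase SnRK1, which turns on genes that break down amino acids, starch and cell constituents. Genes of touch, wounding and calcium signalling respond within minutes to handling and are a further set of fast-changing leaf genes. The locus codes used below have no description in the probe annotation, and the RefSeq gene table (assembly TAIR10.1) matched all 62, gave each as protein-coding and repeated the locus code as the symbol of all 62. No function is therefore assigned to any of them.

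A value is a linear ratio, that of a probe set on an array to its median over the 3 WL arrays of the same tissue. The level of a gene is thus unknown, genes cannot be ranked by abundance, the 2 tissues cannot be compared in white light, and no tissue marker can be checked. Array medians over all probe sets lay between 0.936 and 1.02, and the number of arrays limits the precision. The 25S ribosomal RNA control probe set stood apart in 1 group: its mean log2 ratio was 0.97 ± 0.2 in blade D arrays, between -0.08 and 0.34 in the other groups. The 5S ribosomal RNA control probe set was at -1.97 ± 1.84 in petiole D and -0.83 ± 2.19 in blade D arrays. Its means in the other groups lay between -0.67 and 0.21. In whole organs, fewer cells of a type and less RNA per cell cannot be told apart.

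In petioles the median of the 62 genes was 3.68, 2.75 and 3.36 in the 3 FRD arrays and 3.08, 3.07 and 3.21 in the 3 D arrays, each WL array having a median of 1. Blades gave 4.32, 2.96 and 3.35 in FRD arrays and 3.77, 3.57 and 4.42 in D arrays. A ratio of at least 2 was reached by 53 to 60 genes in each petiole FRD or D array and by 54 to 62 in each blade one, against 0 to 3 genes in a WL array. In both tissues the FRD array with replicate number 2 had the lowest median of its group. The gap between the lowest array without light and the highest WL array was 1.03-fold to 6.9-fold in petioles, with a median of 1.83, and 1.07-fold to 8.25-fold in blades, with a median of 1.93. It was at least 2-fold in both tissues for 17 of the 62 genes. The narrowest gaps were those of AT2G32030 in petioles and AT2G24600 in blades.

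**Figure D1:**
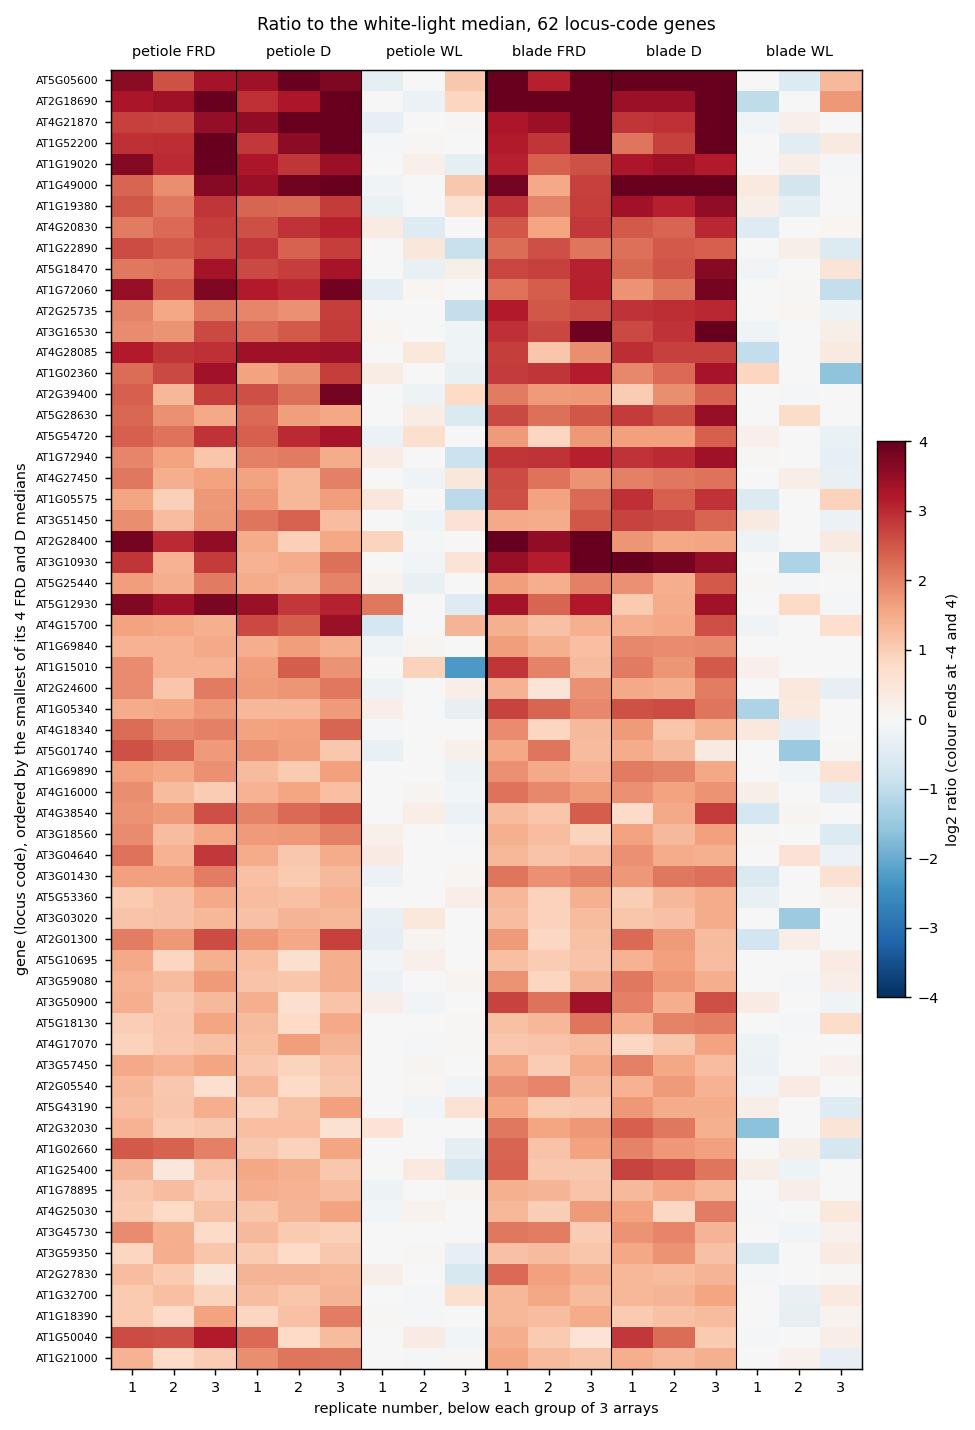
Each row is 1 of the 62 genes and each column 1 array, in groups of 3, with colour giving the log2 ratio to the white-light median of the same tissue. Rows run from AT5G05600 at the top, with the highest value of the smallest of the 4 FRD and D medians, to AT1G21000 at the bottom, and the WL columns are paler, though the WL arrays of 11 genes in petioles and 13 in blades spread over more than a 2-fold range.

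Raised locus-code genes were shared between the tissues in part. The same 2-fold and no-overlap criteria were met in petioles by 160 locus-code probe sets (1.34% of them), in blades by 201 (1.68%), and in both by 63. The shared 63 made up 39.4% of the petiole list and 31.3% of the blade list. Over all probe sets 366 met the criteria in petioles (1.61%), 455 in blades (2.0%) and 173 in both (0.761%). Of those with a locus code 0.528% met them in both, so meeting them in both tissues is not particular to locus-code genes. Near the threshold, the smallest of the 4 group medians was 2.03 for AT1G21000, 2.05 for AT1G50040 and 2.05 for AT1G18390 among the genes taken. Among those that met all else it was 1.999 for AT1G03610, 1.99 for AT1G49200 and 1.96 for AT3G62950. A further 107 locus-code probe sets met the no-overlap criterion with a smallest median of 1.5 to 2, so the set is the upper end of a continuous range.

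In 7 genes all 4 group medians were at least 5. AT5G05600 reached the highest ratio of the set, in blades though not in petioles. In petioles it was at 12.2, 5.88 and 10.1 in FRD arrays and 10.5, 15.4 and 13.4 in D arrays, against 0.765, 1 and 2.11 in WL arrays. In blades it was at 20.4, 8.56 and 30.8 in FRD and 53.5, 35.6 and 57.2 in D, against 1, 0.679 and 2.45 in WL. The blade D arrays lay above all petiole arrays and above all blade FRD arrays.

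AT2G18690 was the second by that ranking. Its petiole ratios were 9.57, 10.4 and 23.5 in FRD and 7.61, 9.43 and 26.2 in D, against 1, 0.848 and 1.8 in WL. Its blade ratios were 16.1, 16.8 and 31.1 in FRD and 11, 10.9 and 56.4 in D, against 0.498, 1 and 3.35 in WL. The array with replicate number 3 was the highest in each of the 6 groups, white light included.

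AT4G21870 and AT1G52200 had the widest petiole gaps beside AT1G19020. AT4G21870 was at 6.62, 6.55 and 11.5 in petiole FRD and 11.7, 15.8 and 17.7 in petiole D, against 0.792 to 1.04 in petiole WL. AT1G52200 was at 7.54, 7.71 and 18.7 in petiole FRD and 7.13, 12 and 25.5 in petiole D, against 0.939 to 1.03 in petiole WL. Both genes had 1 far higher blade D array, that with replicate number 3, at 42.6 for AT4G21870 (7.32 and 7.52 in the others) and at 20.1 for AT1G52200 (4.43 and 6.61 in the others).

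AT1G19020 was raised strongly and evenly. Its petiole ratios were 12.9, 7.96 and 15.4 in FRD and 9.41, 7.25 and 10.8 in D, against 0.772 to 1.14 in WL. Its blade ratios were 8.58, 5.3 and 5.87 in FRD and 9.42, 10.5 and 8.99 in D, against 0.978 to 1.19 in WL. No group spread over more than a 2-fold range.

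AT1G49000 and AT1G19380 complete the 7. AT1G49000 was at 5.03, 3.63 and 12.5 in petiole FRD and 10.7, 14.6 and 32.4 in petiole D, against 0.903, 1 and 2.12 in petiole WL, and in blades at 14.1, 2.84 and 6.64 in FRD and 15.9, 16.8 and 22.3 in D. Its blade FRD arrays spread over a 4.97-fold range, the widest of the set in that group. AT1G19380 had medians of 5.64 in petiole FRD, 5.03 in petiole D, 6.77 in blade FRD and 10.2 in blade D. Its 3 blade D arrays, at 8.58 to 11.7, lay above its 3 blade FRD arrays at 3.97 to 7.41.

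A smallest median between 3 and 5 was found in 14 genes. The highest 5 of these were AT4G20830, AT1G22890, AT5G18470, AT1G72060 and AT2G25735, with smallest medians from 3.87 to 4.82. AT1G22890 stayed between 4.42 and 7.13 in all 12 arrays without light, against 0.536 to 1.36 in WL. AT1G72060 was at 11.3, 5.76 and 13.2 in petiole FRD, 8.93, 8.11 and 14.4 in petiole D, 4.47, 5.3 and 8.68 in blade FRD, and 3.46, 4.41 and 14.2 in blade D. The petiole D arrays of AT4G28085, at 10.4, 10.4 and 10.9, lay closer together than those of any other gene with a petiole D median of at least 5, while its blade FRD arrays were at 6.81, 2.15 and 3.65.

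A smallest median under 3 was found in the other 41 genes, 10 of them at 2.5 or more. For 10 genes all 4 medians stayed under 3, namely AT5G53360, AT3G03020, AT5G10695, AT4G17070, AT3G57450, AT5G43190, AT1G78895, AT3G59350, AT1G32700 and AT1G18390. AT1G78895 shows how such a gene looks. Its petiole ratios were 2.09, 2.33 and 1.98 in FRD and 2.74, 2.65 and 2.37 in D, against 0.874 to 1.09 in WL. Its blade ratios were 2.67, 2.58 and 2.21 in FRD and 2.48, 2.88 and 2.51 in D, against 0.992 to 1.2 in WL. The rise is small and the arrays of each group lie close together.

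The array with replicate number 3 was the highest of its group in all 4 FRD and D groups for 16 of the 62 genes (25.8%), against 5.65% of all probe sets. The share was 1.61% for replicate number 1 (2.65% of all probe sets) and 0 genes for replicate number 2 (2.41% of all probe sets). As the lowest array in all 4 groups, replicate number 3 was found for 2 genes (3.23%, against 8.79% of all probe sets). Replicate number 2 was so for 5 genes (8.06%, against 1.46%) and number 1 for 3 (4.84%, against 2.03%). Over all probe sets, replicate number 3 was thus more often the lowest than the highest. The 16 include AT2G18690, AT4G21870, AT1G52200, AT5G18470, AT1G72060, AT3G16530 and AT1G02360. In AT3G16530, for example, the array with replicate number 3 was at 6.21 in petiole FRD, 6.92 in petiole D, 14.8 in blade FRD and 23.9 in blade D, where the other arrays were at 3.51 to 5.52 in petioles and 6.26 to 7.53 in blades. Replicate number 3 was also the highest in both WL groups for 4 of the 16 (6.45% of the 62, against 2.52% of all probe sets), AT2G18690, AT5G18470, AT5G53360 and AT5G18130. The pattern was noticed in these data and then counted, and what the number stands for is not stated in the labels.

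The far-red pulse was compared with darkness alone by limma over all probe sets, 2-sided with Benjamini-Hochberg adjustment, and a change was called at an adjusted p under 0.05. In petioles 2 of the 62 genes were called, where 1.09% of all probe sets were, 1 of them higher (0.879% of all) and 1 lower (0.215% of all). In blades 1 gene was called, where 0.651% of all probe sets were. It was higher (0.558% of all), and 0 were lower by limma (0.0923% of all), with 9 lower at an unadjusted p under 0.05. The median change of the 62 was -0.05 log2 units in petioles, beside -0.02 over all probe sets, and -0.15 in blades, beside -0.02. Changes of less than 0.5 log2 units either way were measured for 48 genes in petioles and 46 in blades.

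AT2G28400 was called in both tissues and was higher after the pulse. In petioles it was at 14.3, 7.87 and 11.8 in FRD arrays and 2.82, 1.92 and 2.94 in D arrays, against 1.86, 0.976 and 1 in WL arrays. In blades it was at 18.7, 11.8 and 21.9 in FRD and 3.44, 2.9 and 2.99 in D, against 0.863, 1 and 1.29 in WL. All FRD arrays lay above all D arrays of the tissue, and the lowest petiole D array lay 1.04-fold above the highest petiole WL array. The rise over darkness was 2.13 ± 0.31 log2 units in petioles (SE, 4.37-fold, limma adjusted p = 0.00326) and 2.45 ± 0.31 in blades (5.46-fold, limma adjusted p = 0.00112). With any 1 array of the compared groups left out the adjusted p lay between 0.0051 and 0.0237 in petioles and between 0.00155 and 0.00815 in blades. The call was lost in both tissues with quantile normalization (limma adjusted p = 0.275 in petioles and 0.0876 in blades). It was also lost with the compared arrays alone (limma adjusted p = 0.124 in petioles and 0.0791 in blades). Without all arrays of replicate number 3 it was lost too, where the adjusted p was 0.0835 in petioles and 0.0877 in blades at changes of 2.19 and 2.24.

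AT1G21000 was called in petioles and was lower after the pulse. Its petiole ratios were 2.63, 1.72 and 2.03 in FRD arrays and 3.66, 4.38 and 4.34 in D arrays, against 0.975 to 1.03 in WL arrays, so the 3 groups did not overlap. Its change was -0.98 ± 0.17 (0.508-fold, limma adjusted p = 0.0114). In blades its ratios were 2.97, 2.39 and 2.22 in FRD and 2.74, 2.47 and 2.7 in D, which overlap. The difference between the tissues in this change, -0.9 ± 0.24, was not called (limma adjusted p = 0.528). The petiole call was lost without petiole D replicate 2 (adjusted p = 0.0641), without petiole FRD replicate 2 (adjusted p = 0.0643), without all arrays of replicate number 3 (adjusted p = 0.166), with quantile normalization (adjusted p = 0.252) and with the compared arrays alone (adjusted p = 0.248).

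The remaining genes did not pass the test for the pulse in either tissue. At an unadjusted p under 0.05 there were 10 genes in petioles (16.1% of the 62, against 8.17% of all probe sets) and 11 in blades (17.7%, against 7.57%). AT1G02660 was at 5.43, 5.12 and 4.06 in petiole FRD and 2.1, 1.9 and 2.98 in petiole D, with no overlap and a change of 1.08 ± 0.29 (limma adjusted p = 0.143). AT1G69840 was at 3.21, 2.66 and 2.31 in blade FRD and 3.76, 3.7 and 3.75 in blade D, with a change of -0.47 ± 0.12 (limma adjusted p = 0.145). Its blade D arrays lay close together, and its change was called without blade FRD replicate 1 (adjusted p = 0.0434).

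AT1G50040 had opposite signs in the tissues. Its petiole ratios were 6.05, 5.94 and 9.1 in FRD and 4.86, 1.74 and 2.38 in D, a change of 1.34 ± 0.43 (limma adjusted p = 0.271). Its blade ratios were 2.73, 2.05 and 1.46 in FRD and 7.06, 4.72 and 2.06 in D, a change of -1.02 ± 0.43 (limma adjusted p = 0.578). The groups did not overlap in petioles and did in blades. The difference between tissues, 2.36 ± 0.61, had the smallest adjusted p of the 62 genes for this comparison and was not called (limma adjusted p = 0.448).

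**Figure D2:**
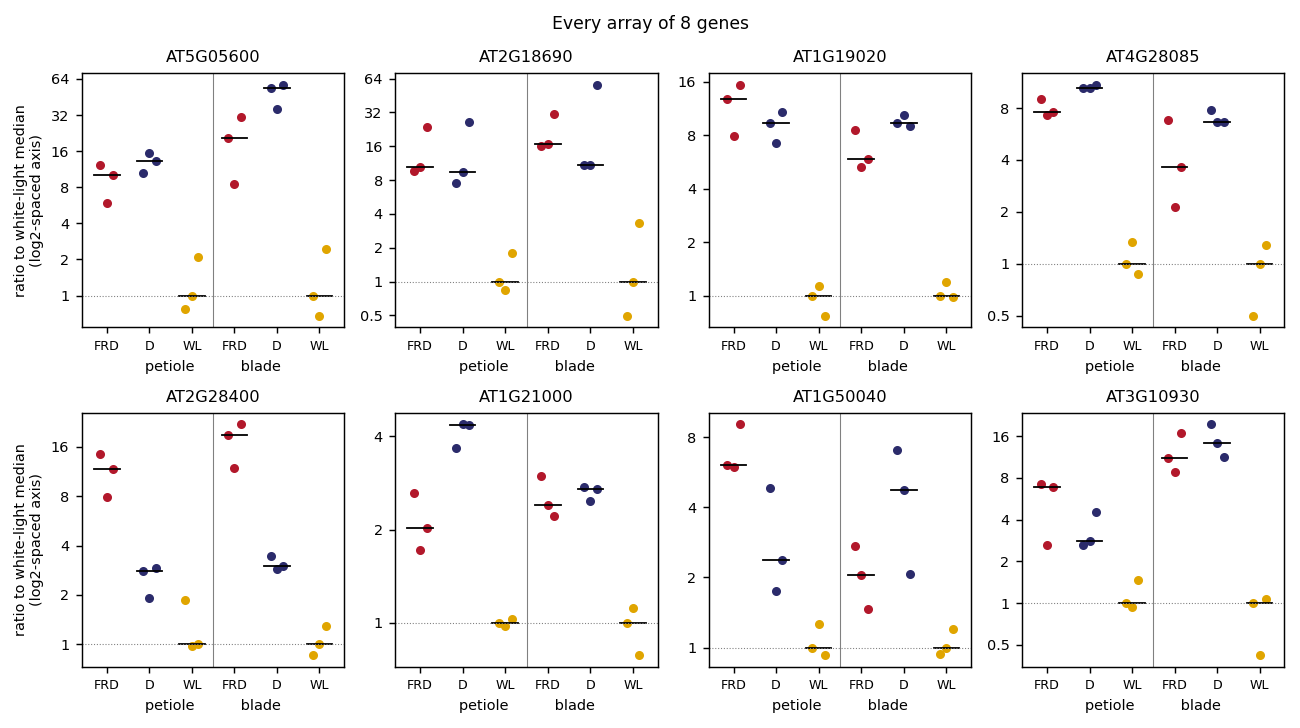
Points are single arrays and bars are group medians, as ratios to the white-light median on a log2-spaced axis, with petioles left and blades right of the grey line. AT2G28400 is far higher in FRD than in D in both tissues, and AT1G21000 is lower in FRD than in D in petioles and overlaps in blades. The other 6 genes include the highest of the set and those with the largest measured differences between tissues, none of which was called.

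Most of the 62 genes had a negative value for the pulse in blades, 47 of them against 15 positive. Over all probe sets 46.5% were positive, against 24.2% of the 62. In petioles 34 were negative and 28 positive. With quantile normalization 43 were negative in petioles and 40 in blades, so the contrast between the tissues depended on the normalization. FRD arrays lay wholly below D arrays for 8 genes in blades (5.59% of all probe sets did) and wholly above for 2 (5.34%), and in petioles wholly below for 7 (6.85%) and wholly above for 5 (7.03%). The 8 in blades were AT5G05600, AT1G19020, AT1G49000, AT1G19380, AT4G15700, AT1G69840, AT3G04640 and AT5G10695. AT5G05600 had a change of -1.45 ± 0.54 (limma adjusted p = 0.472) and was not called. The number of negative values in blades fell to 37 without blade D replicate 3, to 38 without blade FRD replicate 2 and to 37 without all arrays of replicate number 3. The 25S control probe set was at 0.34 ± 0.25 in these blade FRD arrays and 0.97 ± 0.2 in the blade D arrays (log2 ratio, SD, n = 3), and its part in the count was not tested.

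Across the 62 genes the pulse values of petioles and blades had a Pearson r of 0.45 and a Spearman rho of 0.14. Without AT2G28400 the Pearson r was 0.22. The 2 tissues share no array, but genes measured on the same arrays are not independent points. Both values were positive for 8 genes and both negative for 27. A positive petiole value with a negative blade value was found for 20 genes, and the reverse for 7.

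**Figure D3:**
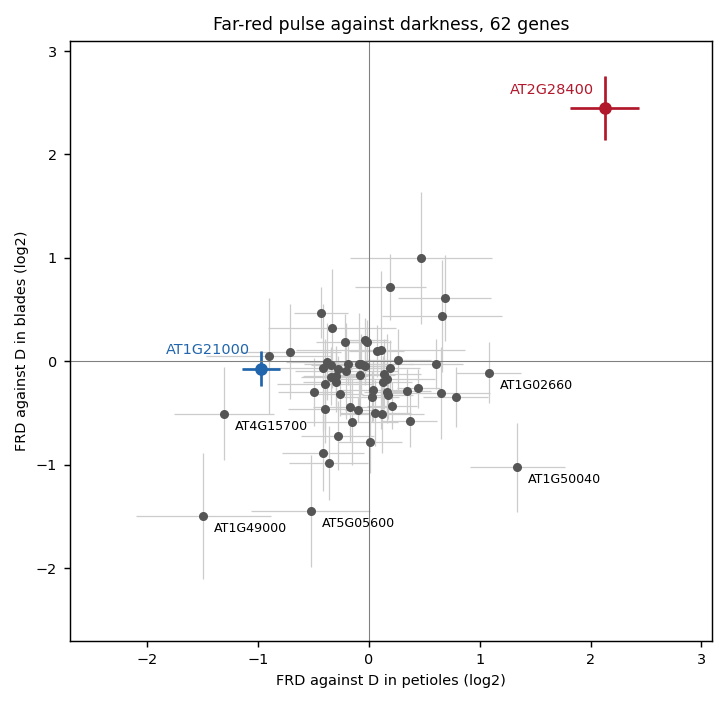
Each point is 1 of the 62 genes, with the log2 change of FRD against D in petioles on the horizontal axis and in blades on the vertical axis, and bars are standard errors of the limma fit. AT2G28400 stands at 2.13 and 2.45, far from the other points, AT1G21000 at -0.98 in petioles, and most points lie below the horizontal line at 0.

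The rise was compared between the tissues as the petiole change minus the blade change, which uses the arrays that chose the genes but not their difference. None of the 62 genes was called for D against WL (0 genes by limma, 9 at an unadjusted p under 0.05, and 0.0044% of all probe sets called) or for FRD against WL (0 genes, 6 at an unadjusted p under 0.05, 0.0352% of all probe sets called). For the pulse the count was also 0, with 8 at an unadjusted p under 0.05 and 0.0% of all probe sets called. In D the median difference was -0.34 log2 units over the 62 genes, beside 0.00036 over all probe sets, and 38 genes had a negative value. In FRD the median was -0.14 and again 38 were negative. The quartiles were -0.6 and 0.18 in D and -0.5 and 0.2 in FRD, and the median standard error was 0.43.

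On the ratio scale the petiole D arrays lay wholly below the blade D arrays for 20 of the 62 genes and wholly above for 3, against 12.8% and 12.4% of all probe sets. The 3 above were AT4G28085, AT3G18560 and AT1G21000. In FRD, 9 genes lay wholly below and 8 wholly above, against 12.6% and 12.7% of all probe sets. Across genes the log2 medians of petioles and blades had a Pearson r of 0.69 in FRD and 0.59 in D (Spearman rho 0.6 and 0.52, 62 genes), over values that the choice of genes already held above 2.

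AT3G10930 differed most between the tissues in D. Its petiole ratios were 7.21, 2.61 and 6.93 in FRD and 2.64, 2.82 and 4.56 in D, against 0.934 to 1.48 in WL. Its blade ratios were 11.2, 8.82 and 17 in FRD and 19.6, 14.2 and 11.4 in D, against 0.422 to 1.07 in WL. All blade arrays without light lay above all petiole ones. The difference was -2.72 ± 0.63 for D against WL (limma adjusted p = 0.352) and -1.77 ± 0.63 for FRD against WL (limma adjusted p = 0.509).

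AT1G72940 and AT3G50900 had higher ratios in blades too. AT1G72940 was at 3.91, 3.07 and 2.15 in petiole FRD and 4.08, 4.25 and 2.79 in petiole D, and at 7.19, 7.35 and 8.56 in blade FRD and 7.43, 7.94 and 10.4 in blade D. Its lowest blade array without light was 7-fold above its highest blade WL array. The difference was -1.29 ± 0.41 for FRD against WL (limma adjusted p = 0.432) and -1.13 ± 0.41 for D against WL (limma adjusted p = 0.627). AT3G50900 was at 2.73, 2.12 and 2.45 in petiole FRD and 6.48, 4.5 and 10.3 in blade FRD, a difference of -1.45 ± 0.45 (limma adjusted p = 0.432).

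Higher ratios in petioles were seen for AT4G28085, AT5G54720, AT5G12930, AT4G15700, AT4G18340, AT3G04640, AT2G01300 and AT1G50040 in FRD, whose petiole FRD arrays all lay above their blade FRD arrays. AT5G12930 was at 13, 10.2 and 13.5 in petiole FRD and 10, 5 and 9.28 in blade FRD. Its petiole WL arrays spread widely, at 4.28, 1 and 0.702, and its lowest petiole array without light was 1.67-fold above the highest of these. AT1G50040 had the largest positive difference for FRD against WL, 1.76 ± 0.61 (limma adjusted p = 0.486).

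**Figure D4:**
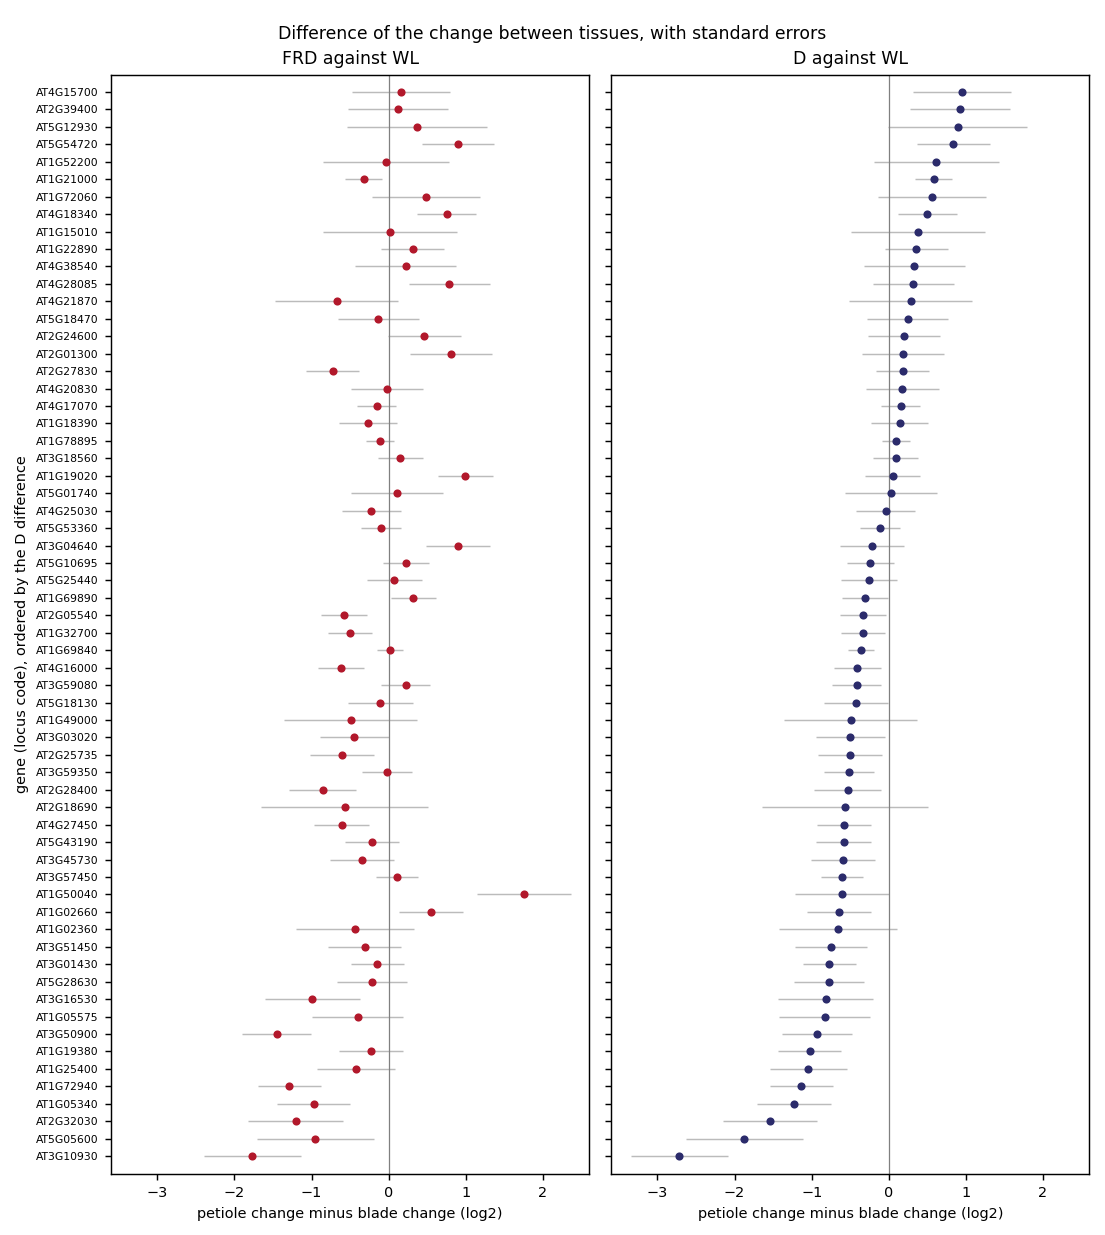
Points give the petiole change minus the blade change in log2 units for FRD against WL (left) and D against WL (right), with standard errors of the limma fit, for the 62 genes ordered by the D difference. In both panels 38 of 62 points lie below 0, AT3G10930 is lowest at -1.77 and -2.72, and no difference was called.

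Genes with a known symbol that met the same values in both tissues numbered 15 of 1580 such probe sets (0.949%, against 0.761% of all probe sets). They include AKINBETA1, a subunit of SnRK1, MCCA, an enzyme of leucine breakdown, and ATG8E, a protein of autophagosome membranes. Others are the transcription factor genes WRKY53, WRKY22 and STZ, the calmodulin-like gene CML38, the calmodulin-binding protein gene IQD22, the glycosyltransferase gene UGT72E1 and the cytochrome P450 genes CYP71B22 and CYP71B23. The remaining 4 are HHP2, ATPMEPCRB, TBL37 and MYBC1. The highest group median among the 15 was that of CML38 in blade D, at 9.4, and its others were 2.31 in petiole FRD, 2.16 in petiole D and 6.09 in blade FRD. A further 92 probe sets that met the values are not in the annotation used here (1.05% of such probe sets), and 3 match several genes.

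Of 33 genes listed for energy and sugar starvation, 7 had a named probe set. Against WL, 3 of the 7 were called as higher in petiole FRD (4.44% of all probe sets were), 4 in petiole D (3.45%), 4 in blade FRD (6.41%) and 4 in blade D (6.7%), with 0 called lower by limma in any (of all probe sets, 3.87% in petiole FRD, 2.15% in petiole D, 4.74% in blade FRD and 4.47% in blade D). AKINBETA1, MCCA and ATG8E were called in all 4 comparisons. They were named above for meeting the 2-fold and no-overlap values against WL on the same arrays, so these calls are not separate evidence. IVD, isovaleryl-CoA dehydrogenase of leucine breakdown, was called in blades at 1.07 ± 0.21 in FRD (limma adjusted p = 0.00523) and 1.27 ± 0.21 in D (limma adjusted p = 0.00182). The median of the 7 was 0.7 in petiole FRD, 1 in petiole D, 1.07 in blade FRD and 1.27 in blade D, all on the log2 scale, below the medians of 1.77, 1.6, 1.82 and 1.91 in the 62 locus-code genes, which were chosen for high values.

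Of 23 genes listed for touch, wounding and calcium signals, 9 had a named probe set. As higher were called 4 in petiole FRD (4.44% of all probe sets were), 5 in petiole D (3.45%), 5 in blade FRD (6.41%) and 5 in blade D (6.7%), and 0 as lower by limma in any. STZ, WRKY22 and BIK1, a receptor-like cytoplasmic kinase, were called in all 4. CML38 and WRKY53 were called in both blade comparisons. STZ, WRKY22, CML38 and WRKY53 also met the 2-fold and no-overlap values on the same arrays, so their calls are not separate evidence. BIK1 did not meet those values and was the only other gene called in blades. WRKY22 changed by 2.2 ± 0.25 in petiole FRD (limma adjusted p = 0.000169) and 2.57 ± 0.25 in blade FRD (limma adjusted p = 4.68e-05). CML37, a calmodulin-like gene, had values of 0.7 ± 0.78 in petiole FRD and -2.06 ± 0.78 in blade FRD, and neither was called. For the pulse itself, where 1.09% of all probe sets were called in petioles and 0.651% in blades, 0 starvation genes were called by limma in either tissue, and among the touch and calcium genes WRKY22 alone in petioles, at 1.18 ± 0.25 (limma adjusted p = 0.0388), and 0 in blades. Both lists were drawn up with earlier results of these data known.

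The chromosomal neighbours of the 62 genes were looked up in the RefSeq gene order, the next protein-coding gene on each side. These are 124 genes, 0 of them members of the set, and 60 have a probe set of their own. As higher than in WL, 5 of the 60 were called in petiole FRD (8.33%, against 3.64% of 13333 genes with a probe set), 3 in petiole D (5%, against 3.03%), 6 in blade FRD (10%, against 5.47%) and 5 in blade D (8.33%, against 5.92%). As lower, 1 was called in petiole FRD, AT4G28080 next to AT4G28085, at -0.87 on the log2 scale (limma adjusted p = 0.0348; 3.87% of all probe sets were lower), and 0 by limma in the other 3 comparisons. No neighbour met the 2-fold and no-overlap values in both tissues. AT3G50910, next to AT3G50900, was the 1 neighbour called as higher in all 4 comparisons, at 0.8 in petiole FRD, 0.74 in petiole D, 0.59 in blade FRD and 0.7 in blade D on the log2 scale. The 2 members closest to each other were AT1G69840 and AT1G69890, with 4 genes between them, and the next closest pair, AT1G05340 and AT1G05575, had 22. By chromosome the set holds 20 genes on chromosome 1, 9 on 2, 12 on 3, 10 on 4 and 11 on 5, which is 0.431% to 0.696% of the locus-code genes with a probe set on each.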

How the data were processed

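The deposited table holds 1 column per array, and its values are linear ratios: the median of the 3 WL arrays of each tissue is exactly 1 in all 22810 probe sets, and in 20 to 46 probe sets in the other groups. That the authors divided each probe set by the WL median of its tissue before these ratios were deposited is read from the values, and no label states it. How arrays were summarized and scaled before that was not given in the sources used here. The 64 control probe sets were left out. The fit used limma 3.58.1 (R 4.3.3) on log2 ratios, with 1 mean per group over 18 arrays and eBayes, and was tested first on simulated data. There were 3 missing values, none in a member. In the main fit a p-value weighs a change against the spread between arrays within groups, pooled over the 6 groups and moderated by eBayes. Errors beside changes are standard errors, and beside group means SDs.

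The members, gene lists and tests were chosen with earlier results of these data known. Named genes are members called for the pulse, the 12 with the highest smallest group median, those nearest the threshold or needed for a count, up to 4 per gene list, and, chosen after their values were seen, those with the smallest p or the largest tissue difference. Planned groups by function and promoter motifs were not made, because no descriptions or sequences were used here. Probe sets of list genes were matched by symbol or RefSeq synonym, taking the smallest standard error. Alternatives were 2 normalizations, a floor, a pseudocount, array weights, a variance trend, robust moderation, fewer probe sets, the compared arrays alone, a replicate block and left-out arrays.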

Additional observations from a re-analysis of the deposited data

Results flagged for a closer look

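AT2G27830 had all 3 FRD arrays below all 3 D arrays in petioles and all 3 above in blades. Its ratios were 2.34, 2.07 and 1.41 in petiole FRD and 2.58, 2.56 and 2.53 in petiole D, and 4.81, 3.1 and 2.69 in blade FRD and 2.48, 2.38 and 2.54 in blade D. The petiole change minus the blade change was -0.91 ± 0.34 log2 units and was not called (limma adjusted p = 0.83). No other member had both groups apart in opposite directions.

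The 25S ribosomal RNA control probe set, which entered no comparison, had a mean log2 ratio of 0.97 ± 0.2 in blade D arrays, against -0.08 ± 0.22 in blade WL arrays (SD, n = 3). The petiole D arrays had a mean of 0.05 ± 0.26.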

How the results depend on the processing

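No alternative reversed any of 18 tested gene changes over 366 gene and setting pairs, of which 353 kept direction and side of the threshold. Of the 18, only those of AT2G28400 in both tissues and of AT1G21000 in petioles were called in the main fit. The others kept their side mostly by staying uncalled, so that total says little about the calls. The call was lost in 3 of 17 alternatives for AT2G28400 in each tissue and in 5 of 17 for AT1G21000 in petioles. The 62 members became 25 with quantile normalization and 30 with the 75th percentiles aligned (all among the 62), 168 at a 1.5-fold and 21 at a 3-fold threshold, and 61 to 71 with 1 array left out, sharing at least 58. Without all arrays of replicate number 3, an alternative chosen after seeing the data, the rule took 80 probe sets, 55 of them among the 62. Members called for the pulse numbered 0 in either tissue with quantile normalization, with the compared arrays alone and without replicate 3, against 2 in petioles and 1 in blades. With 1 array left out they numbered 1 to 2 in both tissues: petiole D replicate 2 and petiole FRD replicate 2 each ended the call of AT1G21000, and leaving out blade FRD replicate 1 added AT1G69840. Array weights gave 3 in petioles, adding AT1G02660 (adjusted p = 0.0483). All 3 counts of differences between tissues stayed at 0 under all alternatives run. Over all probe sets, the pulse count of 249 in petioles became 33 with quantile normalization and 14 with the compared arrays alone, and that of 148 in blades became 32 and 10. The number of members negative for the pulse in blades was 40 with quantile normalization, 42 with the 75th percentiles aligned and 38 with array weights, against 47. In petioles it was 43, 36 and 33 in the same settings, against 34. The cause of these changes was not tested, except that fewer arrays leave fewer degrees of freedom. No label says that replicate numbers pair the arrays, and the data do not settle it: over 15 pairs of groups, same-numbered deviations correlated at -0.025 to 0.072 for number 1, 0.002 to 0.069 for number 2 and 0.01 to 0.149 for number 3, above 0.1 in 7 pairs for number 3 and in 0 for the others. With the replicate block the members called stayed at 2 in petioles and 1 in blades, while the counts over all probe sets became 289 and 181. Signal over background is unknown, so no filter on dim probe sets could be set.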
